A study of Mus musculus with 9 samples.

Results

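The 40 transcripts described here are known from the myelin-forming oligodendrocytes, the astrocytes and the neurons of the spinal cord, and they were read in libraries of cultured macrophages that had been given spinal cord homogenate. They were picked by gene name, 40 of the 53342 genes in the count table. By role they comprised 9 sheath proteins of myelin, 5 other glial products, 9 astrocyte genes, 8 neurofilament and microtubule genes and 9 genes of the neuronal synapse and axon.

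The cells were bone-marrow-derived macrophages of wild-type C57BL/6J mice, 8 to 12 weeks old and of both sexes per the labels, with the marrow of each animal kept apart. All 9 libraries shared 1 exposure, 24 h of homogenate at 1% weight per volume, which is 10 mg of cord per mL. The homogenate came from cords of C57BL/6 mice 8 to 20 weeks old, pooled from 20 to 30 animals at a time and stripped of meninges. Before the homogenate, cells had 2 h of vehicle (3 libraries), of rapamycin (3 libraries), an inhibitor of the kinase complex mTORC1, or of Torin-2 (3 libraries), which blocks the catalytic site of mTOR. Their doses are not stated in the labels. Cells were rinsed 3 times before lysis, and the study used rapamycin to account for the inhibition of mTORC1 by Torin-2.

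No library without homogenate was analysed here, so transcripts that remained from the homogenate and transcripts made by the macrophages cannot be told apart. In bulk libraries fewer cells of a type and less RNA per cell cannot be told apart either. Total counts ran from 16116666 to 24044329 per library. Markers of the labelled cell type were high, with 12123 CPM (counts relative to the effective library size) for the lysozyme gene Lyz2, 2495 CPM for Cd68, 779.5 CPM for Adgre1 (F4/80) and 584 CPM for Csf1r, as means of 9 libraries.

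Myelin is the spiral of oligodendrocyte membrane that insulates axons. Mbp, myelin basic protein, holds its cytoplasmic faces together, and the mRNAs of Mbp and Mobp are carried out along oligodendrocyte processes and translated beside the sheath, whereas membrane proteins such as Mag and Mog are made at the endoplasmic reticulum of the cell body. After spinal cord injury macrophages engulf myelin and become laden with lipid. Several members are also made outside the nervous system: Ckb, the brain-type creatine kinase, and Cnp in many tissues, and Golli transcripts of the Mbp gene in immune cells.

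The 40 transcripts together made up 0.0507% to 0.107% of all counts. Mbp alone supplied 44.6% to 62.0% of the members' counts, and Mbp with Ckb 74.9% to 79.2%. By mean over the 9 libraries, 9 members reached at least 5 CPM, 14 lay between 1 and 5 CPM and 17 lay under 1 CPM. Of the last, 12 stayed under 1 CPM in every library, and 2 (Opalin and Syt1) had 0 counts in at least 1 library.

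Compared per length, as mean CPM per kilobase of annotated exons, Ckb (59.8) and Mbp (53.4) stood above all others over the 9 libraries. They were followed by Mobp (11.1), Cnp (6.86), S100b (6.72), Uchl1 (4.65), Ndrg2 (2.98) and Gfap (2.89). The membrane proteins of myelin were far lower on this scale, with Mal at 0.383, Mag at 0.330, Mog at 0.210, Cldn11 at 0.195 and Opalin at 0.0256 CPM per kilobase. Per kilobase, Mbp was 191 times as high as Mag with vehicle, 225 times with rapamycin and 94.1 times with Torin-2. The Torin-2 value rests in part on replicate 2, with 47 counts of Mag against 24 and 30 in replicates 1 and 3. The order of the leading genes also differed between groups: Mbp was 0.520 times Ckb with vehicle but 1.37 and 1.22 times with rapamycin and Torin-2, and Cnp lay below S100b with rapamycin. These ratios are descriptions, and the exon length of Mbp includes its alternative Golli exons. Genes of the synapse and axon reached from Ckb down to 0.00249 CPM per kilobase for Syt1, the calcium sensor of synaptic vesicles, which had 4 counts in all.

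**Figure D1:**
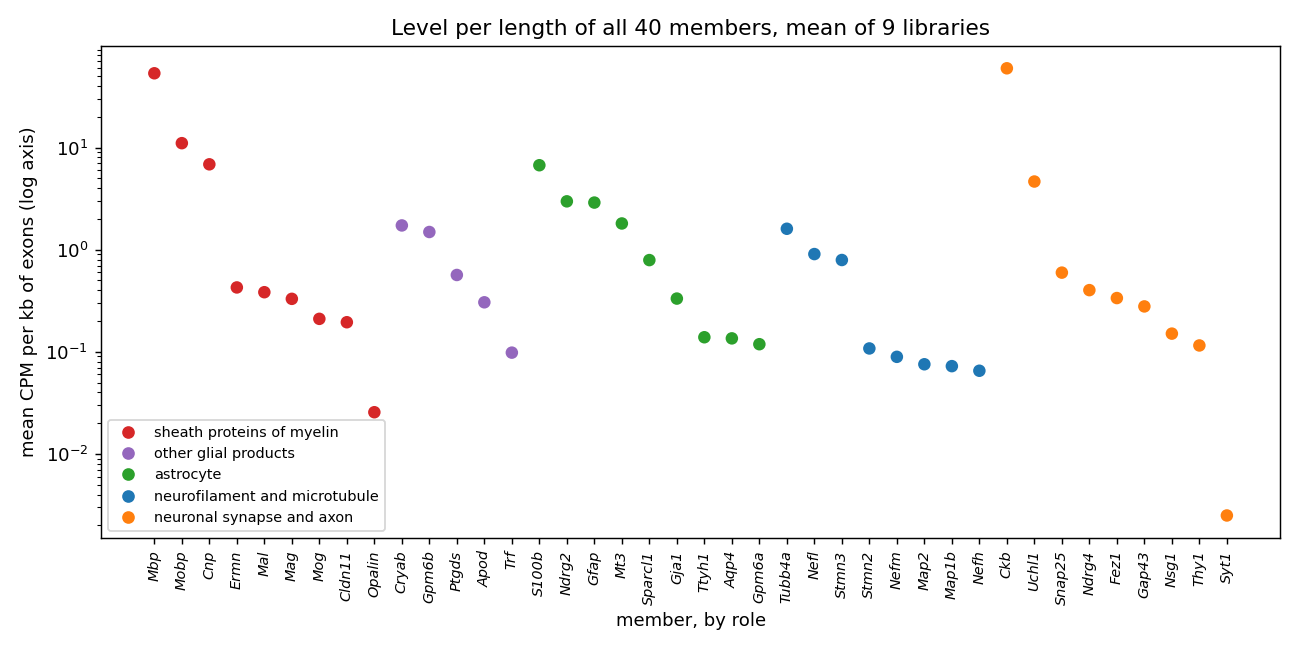
Each point is 1 of the 40 members, with its level in CPM per kilobase of annotated exons (mean of 9 libraries, log axis), ordered within its role and coloured by role. Ckb and Mbp lie above 50 and Syt1 lies lowest.

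The sheath genes were led by Mbp (ENSMUSG00000041607). Its level was 367, 472 and 416 CPM in vehicle replicates 1 to 3, 668, 633 and 537 CPM with rapamycin and 339, 298 and 344 CPM with Torin-2. Every rapamycin library lay above, and every Torin-2 library below, the 3 vehicle libraries.

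Mobp (ENSMUSG00000032517) encodes a small basic protein of compact myelin and lies on chromosome 9 from 120149707 to 120181484 (GRCm38, plus strand). It stood at 64.0, 79.2 and 72.6 CPM with vehicle, 120.2, 115 and 106 CPM with rapamycin and 44.7, 33.9 and 45.9 CPM with Torin-2. The 3 groups kept the same order as for Mbp and did not overlap. Cnp (ENSMUSG00000006782), a phosphodiesterase of the uncompacted myelin, lies on chromosome 11 from 100574904 to 100591729 and had another order. It read 31.1, 35.1 and 34.5 CPM with vehicle, 23.9, 24.9 and 20.0 CPM with rapamycin and 19.1, 18.2 and 17.9 CPM with Torin-2, so that vehicle was highest. Cnp shares 154 exon bases with Dnajc7 on the opposite strand, a gene with 10172 counts against 4599 for Cnp, and it is not known whether the counting used strand, so the value of Cnp is uncertain to that extent.

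The other 6 sheath genes were scarce. Mag, an adhesion molecule that faces the axon, had 22, 26 and 20 counts with vehicle, 24, 27 and 22 with rapamycin and 24, 47 and 30 with Torin-2, highest in Torin-2 replicate 2. The raft protein gene Mal ranged over 0.813 to 1.36 CPM with vehicle, 1.09 to 1.75 CPM with rapamycin and 0.374 to 0.850 CPM with Torin-2. The ermin gene Ermn, a cytoskeletal protein of myelin, ranged over 0.914 to 2.13 CPM with vehicle, 1.35 to 2.64 CPM with rapamycin and 1.01 to 1.11 CPM with Torin-2. For both genes the highest library was a rapamycin library and the Torin-2 libraries were among the lowest. Mog, on the outer face of myelin, the tight junction gene Cldn11 and the oligodendrocyte glycoprotein gene Opalin reached at most 0.708, 0.631 and 0.243 CPM and did not pass the filter on low counts.

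Promoters are shown for 3 members that are known from different cells, Mobp (oligodendrocytes), Gfap (astrocytes) and Ckb (many cells). Group means of Mobp and Gfap had 1 order, highest with rapamycin and lowest with Torin-2, whereas Ckb was highest with vehicle. RefSeq entries (GRCm38.p6) were found for 27 of 40 members. Each sequence is the 250 bases before the RefSeq transcription start, 5′ to 3′ on the gene's strand. The gene positions in this report come from another annotation, GENCODE. The Gfap window lies inside the GENCODE span of Gfap, the Mobp window ends inside that of Mobp, and the Ckb window adjoins that of Ckb. Capitals mark matches on either strand to 3 short motifs, and no marked match overlaps another. The first motif is the TATA box, searched as TATAAA. The next is the core of sites for PU.1, the master transcription factor of macrophages, searched as GAGGAA. The last is the core of sites for SOX proteins, among them a master factor of oligodendrocytes, searched as ACAAAG.

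Mobp, chr9:120149492-120149741, plus strand: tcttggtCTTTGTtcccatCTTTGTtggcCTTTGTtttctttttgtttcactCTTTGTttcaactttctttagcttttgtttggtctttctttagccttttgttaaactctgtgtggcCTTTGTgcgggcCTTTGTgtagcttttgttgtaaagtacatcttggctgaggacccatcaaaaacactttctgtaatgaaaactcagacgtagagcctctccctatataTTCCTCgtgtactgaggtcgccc
Gfap, chr11:102897201-102897450, minus strand: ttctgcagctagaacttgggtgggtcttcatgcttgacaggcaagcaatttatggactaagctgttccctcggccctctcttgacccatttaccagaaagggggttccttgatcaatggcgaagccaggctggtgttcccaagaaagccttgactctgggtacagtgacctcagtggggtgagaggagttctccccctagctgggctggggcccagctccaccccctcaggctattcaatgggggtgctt
Ckb, chr12:111672339-111672588, minus strand: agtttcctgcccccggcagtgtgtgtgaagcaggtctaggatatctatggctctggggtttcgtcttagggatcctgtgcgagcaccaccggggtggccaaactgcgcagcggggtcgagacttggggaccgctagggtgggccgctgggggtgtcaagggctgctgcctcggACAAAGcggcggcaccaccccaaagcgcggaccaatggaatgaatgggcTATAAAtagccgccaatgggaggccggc

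The Mobp window held 6 copies of ACAAAG, all on the reverse strand and hence printed as its complement, 1 GAGGAA and 4 CpG pairs. Of the 27025 genes in the RefSeq table it was the 1 gene with as many as 6 copies (0.0037%). The Gfap window held none of the 3 motifs and 2 CpG pairs. The Ckb window held 1 TATAAA, 1 ACAAAG and 16 CpG pairs, with a GC content of 62.8% against 40.8% for Mobp. ACAAAG occurred in 29.6% of the 27 matched members (8) and in 16.5% of all genes, GAGGAA in 25.9% (7) and 23.1%, and TATAAA in 11.1% (3) and 13.0%. A match describes letters in this window and does not show that a factor binds there.

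Of the other glial products, Gpm6b, a membrane glycoprotein related to the main proteolipid of myelin, was the 1 abundant member. It stood at 6.97, 9.07 and 6.78 CPM with vehicle, 12.8, 9.09 and 11.3 CPM with rapamycin and 6.31, 7.01 and 5.83 CPM with Torin-2. Rapamycin libraries lay above all vehicle libraries, while vehicle and Torin-2 overlapped. The small heat-shock protein gene Cryab ranged over 1.20 to 3.44 CPM with vehicle, 3.50 to 3.91 CPM with rapamycin and 1.60 to 1.86 CPM with Torin-2, with rapamycin above both other groups. Over the 9 libraries the prostaglandin D synthase gene Ptgds ranged from 0.374 to 2.64 CPM, the lipocalin gene Apod from 0.214 to 1.21 CPM and the transferrin gene Trf from 0.214 to 0.601 CPM.

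Gfap (ENSMUSG00000020932), the intermediate filament of astrocytes, lies on chromosome 11 from 102887336 to 102900912 (minus strand). It read 11.4, 13.0 and 10.5 CPM with vehicle, 22.0, 19.2 and 12.0 CPM with rapamycin and 7.00, 7.17 and 7.60 CPM with Torin-2. All Torin-2 libraries were lowest, and 1 rapamycin library lay within the vehicle range. S100b (ENSMUSG00000033208) encodes a calcium-binding protein of astrocytes and some oligodendrocytes, on chromosome 10 from 76253853 to 76261159. Its level was 9.11, 11.6 and 9.24 CPM with vehicle, 15.4, 17.1 and 11.0 CPM with rapamycin and 5.56, 5.15 and 5.54 CPM with Torin-2, in which Torin-2 again stood apart and the other groups overlapped.

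Ndrg2, an astrocyte gene of the N-myc downstream-regulated family, was measured at 7.57, 13.8 and 8.32 CPM with vehicle, 14.5, 13.4 and 13.8 CPM with rapamycin and 7.05, 6.27 and 6.24 CPM with Torin-2. Vehicle replicate 2 lay within the rapamycin range, and the 3 Torin-2 libraries were the lowest. Of the 6 scarcer astrocyte genes, Sparcl1, a secreted matrix protein, ranged over 2.14 to 2.23 CPM with vehicle, 2.70 to 4.31 CPM with rapamycin and 1.07 to 1.44 CPM with Torin-2. Mt3, a metallothionein, ranged over 1.60 to 2.14 CPM with vehicle, 2.41 to 3.09 CPM with rapamycin and 1.02 to 1.38 CPM with Torin-2. In both the 3 groups did not overlap. Aqp4, the water channel of astrocyte end-feet, ranged over 0.582 to 0.813 CPM with vehicle, 1.03 to 1.42 CPM with rapamycin and 0.214 to 0.821 CPM with Torin-2. Ttyh1 and Gpm6a, membrane proteins of glia and neurons, stayed at or under 1.70 and 0.615 CPM.

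Gja1, the main gap junction gene of astrocytes and also made by fibroblasts, differed more between replicate numbers than between groups. It read 5.61, 5.34 and 1.97 CPM with vehicle, 3.73, 3.50 and 1.05 CPM with rapamycin and 4.60, 3.88 and 0.986 CPM with Torin-2, with replicate 3 lowest in each group. The fibroblast collagen Col1a2 was also lowest in replicate 3 of each group, at 21.3, 17.1 and 4.67 CPM, 46.4, 33.5 and 7.01 CPM and 4.97, 4.73 and 1.64 CPM for vehicle, rapamycin and Torin-2. The part of fibroblasts in the Gja1 values was not tested.

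Uchl1 (ENSMUSG00000029223), an abundant deubiquitinating enzyme of neurons on chromosome 5 from 66676091 to 66687234, stood at 7.23, 9.75 and 6.45 CPM with vehicle, 13.3, 11.3 and 9.57 CPM with rapamycin and 4.60, 4.35 and 1.89 CPM with Torin-2. Torin-2 replicate 3 was the lowest of all, and rapamycin and vehicle overlapped narrowly. Ckb (ENSMUSG00000001270) lies on chromosome 12 from 111669361 to 111672338 (minus strand). It read 283, 268 and 273 CPM with vehicle, 165, 157 and 137 CPM with rapamycin and 91.1, 90.2 and 93.6 CPM with Torin-2, with no overlap between any 2 groups and vehicle highest, the same order as Cnp.

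The remaining neuronal members were scarce. Snap25, a SNARE protein of synaptic release, ranged over 3.17 to 4.61 CPM with vehicle, 4.59 to 5.60 CPM with rapamycin and 2.38 to 3.56 CPM with Torin-2. The brain tubulin Tubb4a, also high in oligodendrocytes, ranged over 3.20 to 4.96 CPM with vehicle, 3.61 to 4.92 CPM with rapamycin and 2.34 to 2.67 CPM with Torin-2. The neurofilament light chain Nefl ranged over 2.74 to 4.17 CPM with vehicle, 2.65 to 4.70 CPM with rapamycin and 1.23 to 2.71 CPM with Torin-2. Torin-2 lay below vehicle without overlap for Tubb4a and Nefl but not for Snap25. The dendritic microtubule protein Map2 ranged over 0.941 to 1.20 CPM with vehicle, 1.40 to 2.32 CPM with rapamycin and 0.637 to 0.962 CPM with Torin-2. Map1b, which binds microtubules of growing axons, ranged over 0.625 to 1.75 CPM with vehicle, 0.501 to 2.44 CPM with rapamycin and 0.616 to 0.695 CPM with Torin-2. Its CPM was lowest in replicate 3 of each group, but only by few reads against vehicle replicate 2 (15 and 13 counts in vehicle replicates 2 and 3). With Torin-2 that order came from the scaling alone, as replicates 1 to 3 had 13, 12 and 15 counts. Ndrg4 (1.10 to 3.09 CPM) and the kinesin adaptor Fez1 (0.986 to 1.99 CPM) also had means of at least 1 CPM. Those under 1 CPM were the neurofilament chains Nefm and Nefh, the stathmins Stmn2 and Stmn3, the endosomal Nsg1, the growth cone protein Gap43, the surface protein Thy1 and Syt1. Nefl and Nefm share 1108 exon bases, and Nsg1 shares 574 with Stx18 (4709 counts), on opposite strands.

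**Figure D2:**
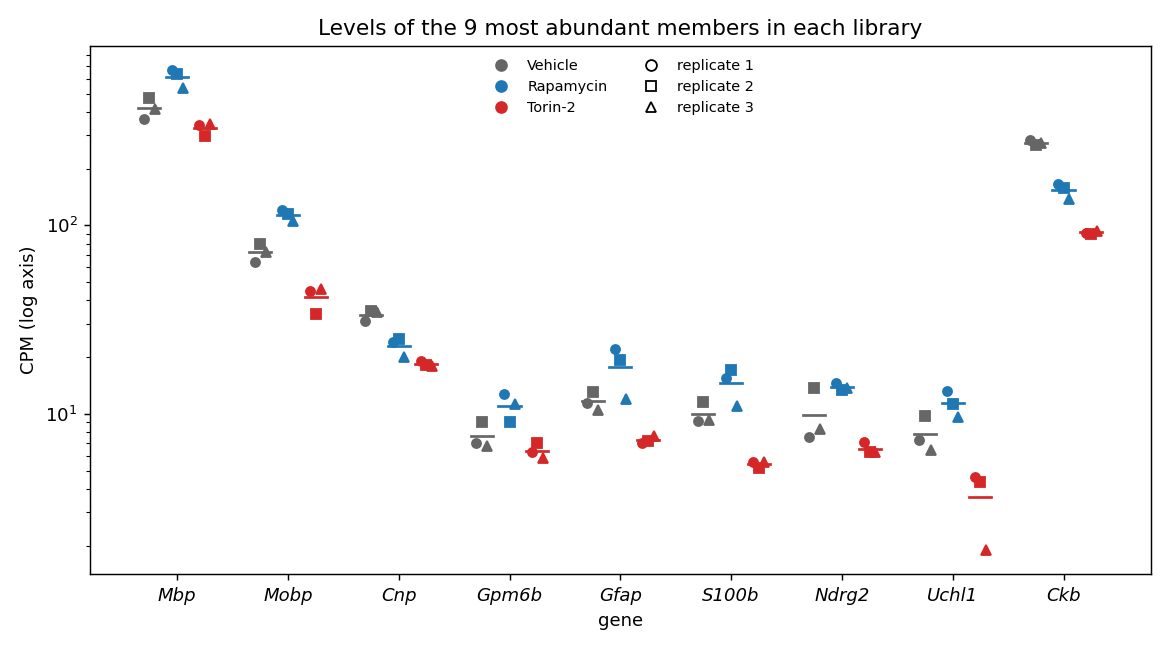
Levels in CPM (log axis) of the 9 members with a mean of at least 5 CPM, with 1 point per library, colour for group, symbol for replicate and a bar for the mean of 3 libraries. The Torin-2 points lie below all others for 8 of the 9 genes and overlap vehicle for Gpm6b, whereas rapamycin lies above vehicle for Mbp and Mobp and below it for Cnp and Ckb.

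Tests were made with edgeR's quasi-likelihood fit on the 12511 genes that passed the filter on low counts, with Benjamini-Hochberg adjustment over those genes and a threshold of 0.05. Of the 40 members, 33 were tested. Mog, Cldn11, Opalin, Trf, Nefh, Syt1 and Gap43 were not. The 3 comparisons share groups, so each is given with its own values.

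With Torin-2 against vehicle, members of all roles but the other glial products were lower, and none was higher. Ckb fell by 1.58 ± 0.07 (SE) on the log2 scale, from 275 ± 7.54 to 91.6 ± 1.78 CPM (SD, n = 3 each, adjusted p = 2.93e-09). Uchl1 fell by 1.14 ± 0.28 (adjusted p = 0.00344), from 7.81 ± 1.73 to 3.61 ± 1.50 CPM. The myelin genes Cnp (-0.87 ± 0.09) and Mobp (-0.79 ± 0.11) fell more than Mbp (-0.35 ± 0.10, adjusted p = 0.00870). Relative to Mbp in the same library, Mobp fell by 0.45 ± 0.17 (adjusted p = 0.0163) and Cnp by 0.52 ± 0.17 (adjusted p = 0.00693, edgeR).

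In all, 11 of the 33 tested members fell and 0 rose, with 22 not passed. Among all genes tested 65.4% were called, 32.5% higher and 32.9% lower, and the members' share of falls, 33.3%, was near that background. Their median log2 fold change was -0.53 against -0.01 for all genes tested. The groups did not overlap, with Torin-2 lower, for 14 tested members (all genes, 35.1%), and with Torin-2 higher for 0 (35.1%). Under this comparison 8 of the 9 members with at least 5 CPM fell, where 37.1% of all genes at that level did, 3 of the 14 at 1 to 5 CPM did, where 26.2% did, and 0 of the 10 tested members under 1 CPM did, where 16.5% of all genes at that level did.

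By role, 3 of 6 tested sheath genes fell (Mbp, Mobp and Cnp), 0 of 4 other glial products, 5 of 9 astrocyte genes, 1 of 7 neurofilament and microtubule genes and 2 of 7 genes of the synapse and axon. The astrocyte genes were S100b (-0.88 ± 0.17, adjusted p = 0.000608), Sparcl1 (-0.84), Gfap (-0.68, adjusted p = 0.00803), Mt3 (-0.63) and Ndrg2 (-0.60, adjusted p = 0.0171). Tubb4a fell by 0.62 (adjusted p = 0.0248). The values of Mag (0.65 ± 0.33) and Ndrg4 (0.46 ± 0.35) were positive but did not pass. With the replicate number as a block, Gja1 (edgeR adjusted p = 0.0237) and Nefl (adjusted p = 0.0308) passed as well, both lower. Without vehicle replicate 2 or Torin-2 replicate 3, Ndrg2 no longer passed (edgeR adjusted p = 0.0551 and 0.0539). Tubb4a did not pass when Torin-2 replicate 1, Torin-2 replicate 2 or vehicle replicate 3 was left out (adjusted p up to 0.124), nor did Mt3 when replicate 1 or 3 of either group was left out (adjusted p up to 0.148). Mt3 also did not pass with DESeq2 (adjusted p = 0.0815), without the filter on low counts (adjusted p = 0.106) or with only the 2 groups compared (adjusted p = 0.0554), 8 of 17 alternatives in all.

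With rapamycin against vehicle, 2 of 6 tested sheath genes and 5 of 9 astrocyte genes rose, while Ckb and Cnp fell. Mobp rose by 0.66 ± 0.11 on the log2 scale, from 72.0 ± 7.64 to 114 ± 7.08 CPM (SD, n = 3 each, adjusted p = 0.000367, edgeR). Mbp rose by 0.55 ± 0.10, from 418 ± 52.6 to 613 ± 67.7 CPM (adjusted p = 0.000800). Ckb fell by 0.84 ± 0.07, to 153 ± 14.1 CPM (adjusted p = 1.57e-06), and Cnp by 0.55 ± 0.09, from 33.6 ± 2.18 to 23.0 ± 2.57 CPM (adjusted p = 0.000385).

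Of the 33 tested members 10 rose, 2 fell and 21 did not pass, where 50.8% of all genes were called, 24.6% higher and 26.2% lower. Across the 33 tested members the share that rose, 30.3%, was near that background, which was not matched for level. At a mean of at least 5 CPM 6 of 9 members rose, where 30.7% of all genes at that level did. At 1 to 5 CPM 4 of 14 rose (all genes at that level, 11.8%), and under 1 CPM 0 of 10 tested (5.05%). The 2 members that fell had at least 5 CPM, where 30.1% of all genes fell. The members' median log2 fold change was 0.53 against 0.00108 for all genes tested. Groups did not overlap for 8 members with rapamycin higher (all genes, 27.8%) and for 2 with it lower (29.7%). The count of rises depended on single libraries: it was 3 without vehicle replicate 1, 3 without rapamycin replicate 1 and 4 without rapamycin replicate 2, and it was 6 when libraries were scaled by their totals alone. Mbp, Mobp, Cnp and Ckb passed in each of the 17 alternatives.

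Beside Mbp and Mobp, the members that rose were Cryab (0.81, adjusted p = 0.0474), Gpm6b (0.53), Gfap (0.60 ± 0.18), S100b (0.54 ± 0.16), Sparcl1 (0.71), Mt3 (0.62), Ndrg2 (0.49, adjusted p = 0.0428) and Map2 (0.81). Of the other roles, 2 of 4 other glial products rose, 1 of 7 neurofilament and microtubule genes and 0 of 7 genes of the synapse and axon. Gfap, S100b and Gpm6b did not pass without vehicle replicate 1 (edgeR adjusted p = 0.0502, 0.0557 and 0.0560), Gfap and Gpm6b without rapamycin replicate 1 (0.0784 and 0.0622), and Gfap and S100b without rapamycin replicate 2 (0.0551 and 0.0661). Sparcl1 did not pass when any 1 of these 3 libraries was left out. Cryab and Ndrg2 failed to pass in 11 of 17 alternatives each, Mt3 in 8 and Map2 in 7. With the replicate block, Uchl1 rose (0.54 without the block, adjusted p = 0.0167 with it) and Gja1 fell (adjusted p = 0.00830).

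With Torin-2 against rapamycin, the groups that the design sets side by side to account for mTORC1, members of every role were lower with Torin-2. Uchl1 fell by 1.67 ± 0.28 (edgeR adjusted p = 0.000375), Sparcl1 by 1.55 ± 0.24 and Mobp by 1.45 ± 0.11 (adjusted p = 1.28e-06). Mobp stood at 114 ± 7.08 CPM with rapamycin and 41.5 ± 6.62 CPM with Torin-2 (SD, n = 3 each). S100b fell by 1.42, Gfap by 1.28, Ndrg2 by 1.09, Mbp by 0.91 ± 0.10 (adjusted p = 2.14e-05), Gpm6b by 0.79 and Ckb by 0.74 ± 0.07. Cnp fell least among the abundant members, by 0.32 ± 0.09 (adjusted p = 0.0137), and did not pass without rapamycin replicate 2 (adjusted p = 0.0615) or with library totals alone (adjusted p = 0.0510).

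Of the 33 tested members 21 fell, 0 rose and 12 did not pass, against 48.2% of all genes called, 24.2% higher and 24.1% lower. The share of members that fell was 63.6%, and their median log2 fold change was -0.91 against -0.000711 for all genes tested. Torin-2 lay below rapamycin without overlap for 23 members (all genes, 28.2%) and above it for 0 (28.9%). At a mean of at least 5 CPM 9 of 9 members fell (all genes at that level, 29.3%), at 1 to 5 CPM 9 of 14 (12.7%) and under 1 CPM 3 of 10 tested (7.92%). Leaving out 1 library at a time gave 14 to 22 falls, with the fewest without rapamycin replicate 2, when Cnp, Mal, Ermn, Ptgds, Aqp4, Ttyh1 and Nefl did not pass.

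By role, 5 of 6 sheath genes fell (Mbp, Mobp, Cnp, Mal at -1.14 and Ermn at -1.05), 3 of 4 other glial products (Cryab, Ptgds and Gpm6b) and 7 of 9 astrocyte genes, among them Aqp4 (-1.09 ± 0.40, edgeR adjusted p = 0.0415). Aqp4 did not pass in 10 of 16 alternatives (adjusted p 0.0265 to 0.117 over all 16), DESeq2 and library totals alone among them, and Ermn and Ptgds each did not pass in 5 of 17, when either rapamycin replicate 1 or 2 or any 1 Torin-2 library was left out (adjusted p up to 0.102 and 0.199). Of the neuronal genes 3 of 7 neurofilament and microtubule genes fell (Nefl, Tubb4a and Map2) and 3 of 7 of the synapse and axon (Snap25 at -0.75, Uchl1 and Ckb). Nefl passed although its groups overlapped (Torin-2 up to 2.71 CPM, rapamycin from 2.65 CPM). It did not pass in 4 of 17 alternatives (edgeR adjusted p up to 0.0866). Mal did not pass in 3 of 17, Ttyh1 in 2 and Snap25 in 1. Mag (0.35 ± 0.33), Gja1 (0.18 ± 0.58) and Ndrg4 (0.11 ± 0.35) had positive values that did not pass. With the replicate block Map1b (edgeR adjusted p = 0.0184) and Fez1 (adjusted p = 0.0386) fell as well.

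**Figure D3:**
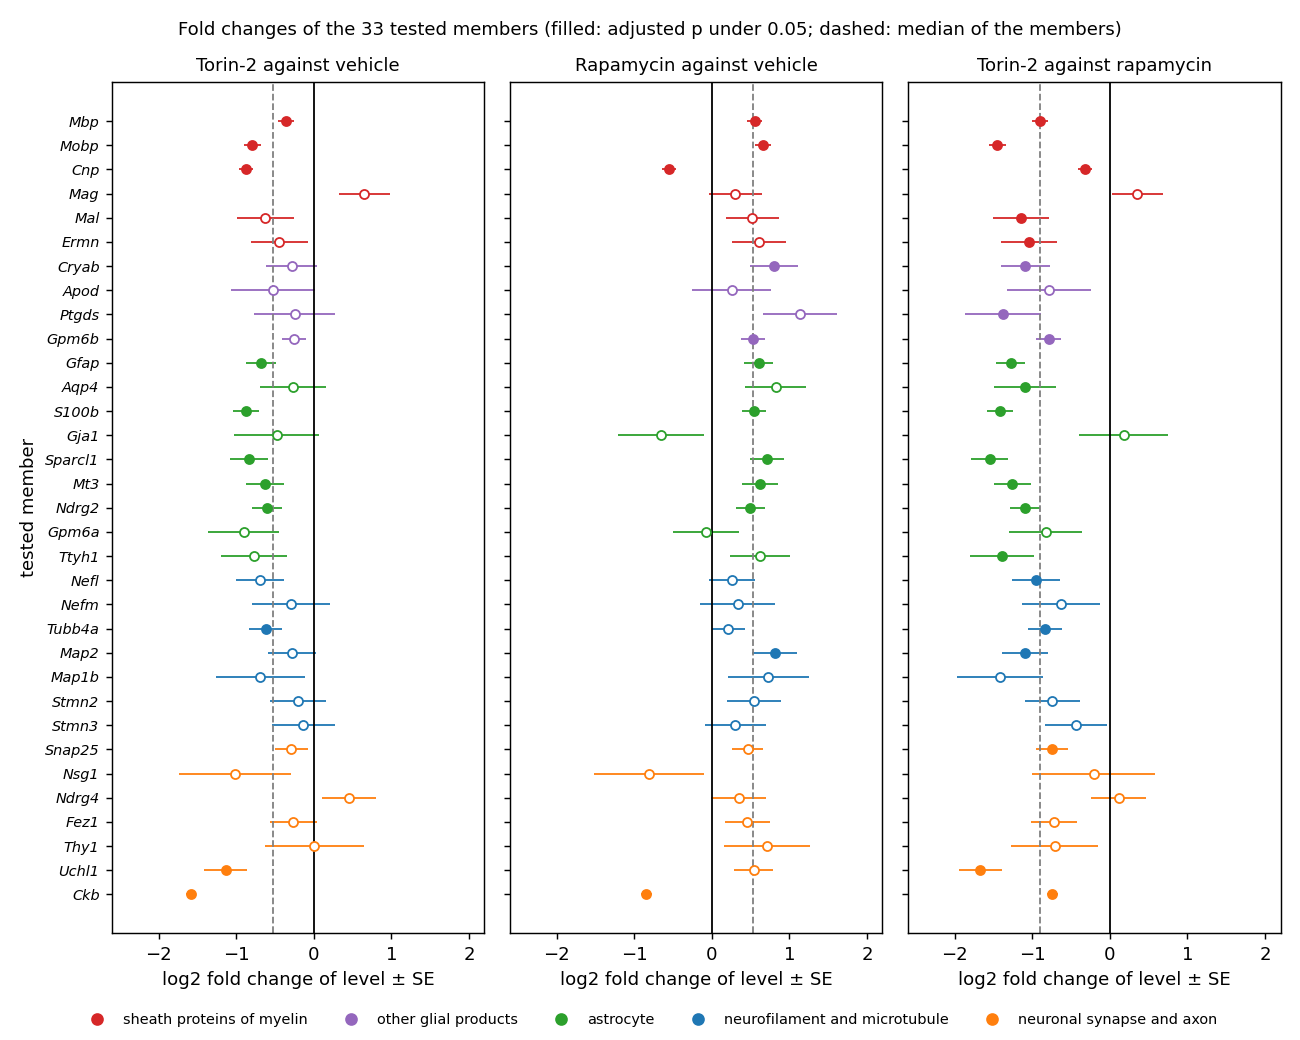
Log2 fold change of the level, with its SE, for the 33 tested members in each comparison, coloured by role. Filled points passed at an adjusted p under 0.05, and the dashed line is the members' median (-0.53, 0.53 and -0.91 from left to right). With Torin-2 every point that passed lies left of 0, and with rapamycin against vehicle 2 of the 12 that passed do, Cnp and Ckb.

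Summed by role, the sheath genes stood at 528 ± 63.4 CPM with vehicle, 755 ± 78.0 CPM with rapamycin and 391 ± 31.0 CPM with Torin-2 (mean ± SD, n = 3), mostly Mbp. The astrocyte genes summed to 41.8 ± 6.74, 58.3 ± 10.2 and 26.0 ± 1.44 CPM in the same order, and the neurofilament and microtubule genes to 11.3 ± 1.16, 14.7 ± 3.65 and 7.88 ± 0.641 CPM. Genes of the synapse and axon summed to 291 ± 5.86, 175 ± 17.5 and 103 ± 0.942 CPM, most of it Ckb. All members without Mbp and Ckb gave 190.5 ± 23.6, 255 ± 28.5 and 118 ± 4.03 CPM.

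A ratio of 2 transcripts in 1 library does not depend on library scaling, so each member was also counted per 100 reads of Mbp. Gpm6b gave 1.90, 1.92 and 1.63 reads per 100 Mbp reads with vehicle, 1.92, 1.43 and 2.10 with rapamycin and 1.86, 2.35 and 1.70 with Torin-2. Gfap gave 3.10, 2.76 and 2.52 with vehicle, 3.30, 3.03 and 2.23 with rapamycin and 2.06, 2.40 and 2.21 with Torin-2. For both genes vehicle and rapamycin overlapped, while for Gfap every Torin-2 library lay below every vehicle library. Ndrg2 averaged 2.33 ± 0.512, 2.29 ± 0.241 and 2.00 ± 0.158 reads per 100 Mbp reads with vehicle, rapamycin and Torin-2 (SD, n = 3), and none of these 3 genes passed in any ratio comparison.

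Mobp gave 17.4, 16.8 and 17.5 reads per 100 Mbp reads with vehicle, 18.0, 18.1 and 19.8 with rapamycin and 13.2, 11.4 and 13.4 with Torin-2. Relative to Mbp it also fell against rapamycin, by 0.56 ± 0.17 on the log2 scale (edgeR adjusted p = 0.00150). S100b averaged 2.39 ± 0.143, 2.35 ± 0.325 and 1.66 ± 0.0599 reads per 100 Mbp reads with vehicle, rapamycin and Torin-2, with adjusted p = 0.0191 for Torin-2 against vehicle and 0.0159 against rapamycin. Uchl1 averaged 1.86 ± 0.274, 1.85 ± 0.118 and 1.12 ± 0.498, with adjusted p = 0.00174 and 0.00118 for the same comparisons (edgeR). Its Torin-2 mean rests in part on replicate 3, with 0.550 against 1.35 and 1.46 in replicates 1 and 2. The falls relative to Mbp also depend on the denominator. With Mobp in place of Mbp, 1 member was lower with Torin-2 against vehicle, and the counts against rapamycin are given below.

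Cnp and Ckb left the ratio they had with vehicle in both treated groups. Cnp gave 8.47, 7.43 and 8.31 reads per 100 Mbp reads with vehicle, 3.58, 3.93 and 3.73 with rapamycin and 5.62, 6.09 and 5.20 with Torin-2, so that rapamycin was lowest. Ckb gave 77.1, 56.8 and 65.7 with vehicle, 24.7, 24.8 and 25.6 with rapamycin and 26.8, 30.3 and 27.3 with Torin-2. Relative to Mbp, Ckb fell by 1.41 ± 0.17 with rapamycin (edgeR adjusted p = 9.95e-14) and by 1.24 ± 0.17 with Torin-2 (adjusted p = 2.81e-11), both against vehicle. Its value for Torin-2 against rapamycin, 0.17 ± 0.17, did not pass.

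Mag stood higher relative to Mbp with Torin-2, by 1.03 ± 0.38 against vehicle (adjusted p = 0.0151) and by 1.28 ± 0.38 against rapamycin (adjusted p = 0.00139, edgeR). It rested on the 20 to 47 counts per library given above. With Torin-2 Mag gave 0.378, 0.837 and 0.359 reads per 100 Mbp reads, against at most 0.267 with vehicle and 0.231 with rapamycin.

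Over the 32 members with a ratio, 2 were higher and 5 lower with Torin-2 against vehicle, where 57.3% of all genes were called relative to Mbp, 42.5% higher and 14.8% lower. With rapamycin against vehicle 0 were higher and 4 lower (Cnp, Ckb, Gja1 and Nsg1), where 59.1% of all genes were called, 3.19% higher and 55.9% lower. With Torin-2 against rapamycin 4 were higher (Cnp, Mag, Gja1 and Ndrg4) and 3 lower (Mobp, S100b and Uchl1), where 81.1% of all genes were called, 79% higher and 2.05% lower. Gja1 (in both comparisons with rapamycin) and Nsg1 passed although their groups overlapped in the ratio. With rapamycin against vehicle the SE of Gja1 was 0.28 in the ratio fit but 0.56 for its level, which did not pass without the replicate block. For Nsg1 these SE were 0.52 and 0.71. The ratio calls of both genes are to be read with caution. The members' median ratio change was -0.19 with Torin-2 against vehicle, -0.02 with rapamycin against vehicle and 0.02 with Torin-2 against rapamycin. Negative values numbered 19, 19 and 16 of 32 in the same order. All genes tested had medians of 0.34, -0.55 and 0.90. Groups did not overlap in the ratio for 2 members with Torin-2 above vehicle (all genes, 47.2%) and 8 with it below (16.2%), for 1 with rapamycin above vehicle (3.49%) and 3 below (53.7%), and for 4 with Torin-2 above rapamycin (79.6%) and 5 below (1.9%). The error of Mbp enters every ratio, and a ratio that did not pass is not shown to be equal.

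Abundance bears on these counts. With Torin-2 against rapamycin, 1 of the 8 members with at least 5 CPM was higher relative to Mbp, where 87.7% of all genes at that level were, and 3 were lower, where 1.59% were. At 1 to 5 CPM 3 of 14 members were higher (all genes at that level, 66.7%), and under 1 CPM 0 of 10 (43.2%). Of these counts, the 2 members above vehicle with Torin-2 became 1 without vehicle replicate 1 or 3 or any 1 Torin-2 library, and the 5 below became 2 without Torin-2 replicate 3. The 3 below rapamycin became 6 without rapamycin replicate 3 and 1 without Torin-2 replicate 3. With the replicate block Sparcl1 was lower as well (edgeR adjusted p = 0.0483). With Mobp in place of Mbp as the denominator, 11 members were higher and 0 lower with Torin-2 against rapamycin.

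**Figure D4:**
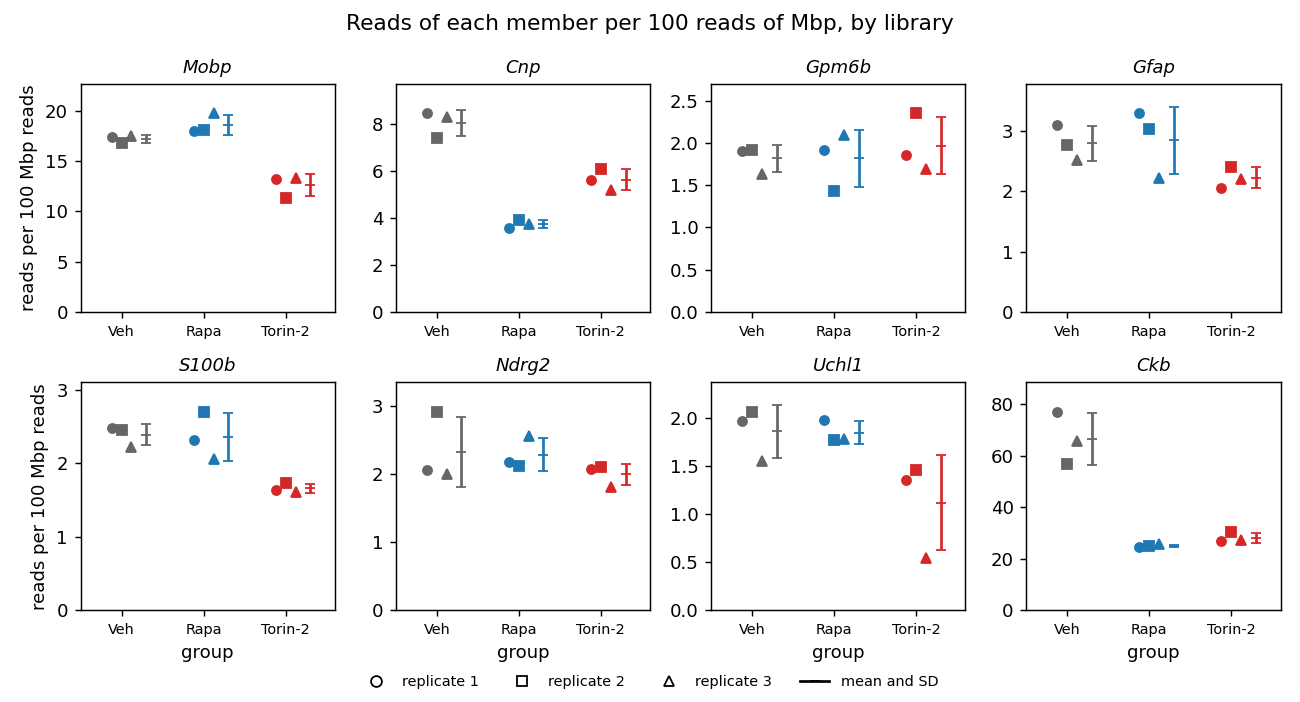
Reads per 100 Mbp reads (linear axes from 0) in each library for the 8 abundant members other than Mbp, with symbols for replicates and the mean ± SD of 3 libraries beside them. Ckb and Cnp drop from vehicle in both treated groups, and the groups overlap for Gpm6b. Mobp, S100b, Uchl1, Gfap and Ndrg2 have their lowest means with Torin-2.

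A further 86 genes of the same cell types were described by their counts, to be read against all genes tested, of which 32.5% rose and 32.9% fell with Torin-2 against vehicle, 24.6% and 26.2% with rapamycin against vehicle, and 24.2% and 24.1% with Torin-2 against rapamycin. Of 26 other oligodendrocyte genes 16 were tested: 2 rose and 9 fell with Torin-2 against vehicle, 6 rose and 1 fell with rapamycin against vehicle, and 0 rose and 10 fell with Torin-2 against rapamycin. Their median log2 fold changes were -0.61, 0.50 and -1.26. The 3 most abundant were Sirt2, a deacetylase made by many cells, at 155 CPM, Qdpr at 67.2 CPM and Plekhb1 at 42.6 CPM. Plekhb1 had the signs of Mobp, with -0.77, 0.55 and -1.33 in the 3 comparisons in that order, all passed. Sirt2 rose in both comparisons with vehicle (0.40 and 0.31) and Qdpr fell in both (-0.56 and -0.50).

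Among the scarcer ones, Sept4 (-1.55), Tmem88b (-1.49) and the oligodendrocyte transcription factor gene Olig1 (-1.41) had the largest falls with Torin-2 against rapamycin. Edil3 (1.12), Sept4 (0.89) and the tubulin-polymerising gene Tppp (0.81) had the largest rises with rapamycin.

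Of 23 other astrocyte genes 17 were tested, and they split. With Torin-2 against vehicle 6 rose and 2 fell, with rapamycin 7 rose and 1 fell, and with Torin-2 against rapamycin 3 rose and 10 fell. The most abundant, the intermediate filament Vim (2653 CPM), the protease inhibitor Cst3 (923 CPM) and glutamine synthetase Glul (278 CPM), are also made by macrophages. Vim rose by 1.80 with Torin-2 and by 1.02 with rapamycin. The glutamate transporter gene Slc1a2, largely restricted to astrocytes in the cord, fell by 1.25 with Torin-2 against rapamycin.

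Of 37 other neuron genes 18 were tested: 3 rose and 4 fell with Torin-2 against vehicle, 7 rose and 1 fell with rapamycin, and 1 rose and 9 fell with Torin-2 against rapamycin. Basp1 (115 CPM) fell in all 3 comparisons. The largest falls in that comparison were those of Tubb3 (-1.46), Cplx1 (-1.39) and Kif5a (-1.16), and Eno2 rose (0.58).

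Markers of other cells the cord or the culture could hold varied too. The 5 neuronal nuclear noncoding RNAs (Meg3 and others) summed to 0.246 to 0.946 CPM per library, with 5 of 5 under 1 CPM in all libraries. The 6 ependymal genes summed to at most 0.695 CPM and the 5 blood genes to at most 0.531 CPM. The 9 genes of meninges and fibroblasts summed to 8.95 to 37.8 CPM with vehicle, 12.3 to 78.2 CPM with rapamycin and 2.38 to 7.32 CPM with Torin-2, with 6 of 9 under 1 CPM in all libraries. All 3 tested ones fell with Torin-2 in both comparisons (all genes, 32.9% against vehicle and 24.1% against rapamycin), as Col1a2 did (-1.97 against vehicle). With rapamycin against vehicle 0 of the 3 passed and their median was 1.00, but with the replicate block 2 rose, Col1a1 and Col1a2 (edgeR adjusted p = 0.000160 and 3.31e-05), and Col1a2 was higher with rapamycin in 3 of 3 same-numbered pairs. By their lowest and their highest library the fibroblast sums had the order of Mbp and Mobp, rapamycin above vehicle above Torin-2, though vehicle overlapped rapamycin.

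Of 9 microglial genes 7 were tested, and 6 fell with Torin-2 and 5 with rapamycin against vehicle. Among them was P2ry12, a purine receptor of resident microglia, at 8.62 ± 2.71 CPM with vehicle, 1.12 ± 0.393 CPM with rapamycin and 1.01 ± 0.179 CPM with Torin-2. The 6 Schwann cell genes summed to 266 to 393 CPM, with 4 of 6 under 1 CPM in all libraries and Pmp22 at 326 CPM. The 13 endothelial and pericyte genes summed to 75.5 to 112 CPM with vehicle, 633 to 693 CPM with rapamycin and 317 to 354 CPM with Torin-2, most of it Pltp, with 7 of 13 under 1 CPM in all. These sums thus mainly follow Pltp and not the list as a whole. Of the 8 tested, 2 rose and 2 fell with Torin-2 against vehicle and 2 rose and 1 fell with rapamycin. With Torin-2 against rapamycin 1 rose and 2 fell. The 16 macrophage markers were all tested: 6 rose and 6 fell with Torin-2 against vehicle, 11 rose and 3 fell with rapamycin, and 1 rose and 12 fell with Torin-2 against rapamycin. Of all genes tested, 32.5% rose and 32.9% fell in the first comparison, 24.6% and 26.2% in the second and 24.2% and 24.1% in the third. The macrophage counts with Torin-2 against vehicle are near these shares. The part of all these markers of other cells in the members' changes was not tested.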

How the data were processed

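The deposited table holds the authors' raw counts for each gene in 9 libraries. Libraries (NuGEN Universal Plus mRNA kit) were read as 100 bp pairs, per the labels' protocols. STAR 2.5.2a, bcl2fastq and FastQC, and the builds GRCm38.p6 and mm10, are named in the submitters' processing notes. The counter, the annotation release and the use of strand are not stated there. Of 53342 identifiers, 53237 were found in GENCODE M21 (GRCm38), which gave positions and exon lengths, and 93.4% of those had the same symbol.

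From the counts, R 4.3.3 with edgeR 4.0.16 (limma 3.58.1 loaded) kept 12511 genes by filterByExpr, scaled libraries by TMM and fitted all 9 libraries in 3 groups, 2-sided. The common biological coefficient of variation was 9.96%. Counts per library of 16116666 to 24044329 leave members under 1 CPM poorly measured, and 3 counts correspond to 0.123 to 0.193 CPM. For ratios the effective library size was set in proportion to the Mbp count. DESeq2 1.42.0 was an alternative, as were other scalings, filters, denominators and left-out libraries. Scripts were tested on simulated data.

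Values are given in every library for members with a mean of at least 5 CPM. From each other list the rule takes up to 3 genes that rose and 3 that fell most among those of at least 1 CPM (some are named), plus the 3 most abundant other oligodendrocyte, astrocyte and neuron genes. Some genes this rule takes are not reported here. The members and lists were chosen with earlier results of these data known. Replicates came from different animals per the labels' protocols. Same-numbered libraries deviated together from their group means (9 correlations of 0.17 to 0.50, against -0.36 to 0.16 for 18 other pairs), so the numbers were taken to pair libraries. The main fits did not use this pairing. It entered the tests only where the replicate block is named.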

Additional observations from a re-analysis of the deposited data

How the results depend on the processing

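Over 17 alternatives and the 3 comparisons, 1493 of the members' values kept direction and side of the threshold, 94 no longer passed, 35 newly passed and 26 changed sign. No sign changed for a member that had passed. Rises with rapamycin against vehicle numbered 10, but 6 with library totals alone and 3 to 11 with 1 library left out. Relative to Mbp, Torin-2 against vehicle gave 2 higher and 5 lower. With Mobp as denominator these were 4 and 1, with the sum of the other sheath genes 4 and 1, without replicate 3 of every group 1 and 1, and with 1 library left out 1 to 2 and 2 to 5. Torin-2 against rapamycin gave 4 higher and 3 lower, 11 and 0 with Mobp as denominator, and 1 to 6 lower with 1 library left out. The cause of these shifts was not tested. For the members' levels the replicate block changed no call beyond those given in the report. In the other gene lists it moved counts by at most 1, except for the 2 meninges and fibroblast genes that rose with rapamycin. Library totals alone moved the median of all genes for rapamycin against vehicle by -0.096 and the share of calls that were higher from 48.5% to 37.4%, and for Torin-2 against rapamycin from 50.1% to 59.7%.

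Signs changed, for members that had not passed, over these ranges of log2 fold changes with 1 library left out. Torin-2 against vehicle ran from -0.58 to 0.22 for Cryab, -0.47 to 0.073 for Ptgds, -0.67 to 0.45 for Nefm, -0.36 to 0.13 for Stmn2, -0.38 to 0.29 for Stmn3 and -0.41 to 0.0089 for Fez1, each highest without vehicle replicate 2. It ran from -0.64 to 0.10 for Aqp4 and from -0.75 to 0.45 for Thy1, and Thy1 was -0.019 with library totals alone and -0.0027 with the replicate block. Rapamycin against vehicle ran from -0.11 to 0.64 for Apod, -0.046 to 1.08 for Nefm, -0.034 to 0.65 for Ndrg4 and -0.18 to 0.14 for Gpm6a, which was 0.18 without replicate 3 of every group. Torin-2 against rapamycin ran from -0.054 to 0.54 for Mag, -0.23 to 0.63 for Gja1, -1.08 to 0.98 for Nsg1 and -0.20 to 0.49 for Ndrg4, which was -0.20 without replicate 3 of every group.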

Other observations

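Of 19 genes for the uptake of myelin and debris, 16 were tested: 7 rose and 6 fell with Torin-2 against vehicle, 9 rose and 5 fell with rapamycin against vehicle, and 6 rose and 8 fell with Torin-2 against rapamycin (edgeR, Benjamini-Hochberg adjusted p under 0.05). Of all genes tested, 32.5% rose and 32.9% fell in the first comparison, 24.6% and 26.2% in the second and 24.2% and 24.1% in the third, and the counts with Torin-2 against vehicle are near these shares, here and in the next list. The scavenger receptor genes Msr1 and Marco fell with Torin-2 against vehicle, by 1.82 ± 0.08 and 1.57 ± 0.26 on the log2 scale, while their values with rapamycin, 0.02 ± 0.08 and 0.08 ± 0.25, did not pass. Both also fell with Torin-2 against rapamycin (-1.84 and -1.65). The Fc receptor genes Fcgr2b and Fcgr3 rose with Torin-2 (2.99 and 1.79) and with rapamycin (1.08 and 0.98), and Fcgr1 fell with both (-1.42 and -0.35). Itgb3, an integrin subunit, rose with Torin-2 (1.08) and fell with rapamycin (-0.86), each against vehicle.

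Of 15 genes for the breakdown and sensing of RNA, 14 were tested, of which 5 rose and 6 fell with Torin-2 against vehicle, 6 rose and 5 fell with rapamycin, and 2 rose and 7 fell with Torin-2 against rapamycin. Tlr7, a sensor of single-stranded RNA in endosomes, rose by 1.69 ± 0.07 with Torin-2 and by 0.71 ± 0.07 with rapamycin. The lysosomal nuclease gene Pld4 fell with both (-1.07 and -0.99), as did Rnh1, the inhibitor of secreted ribonucleases (-1.05 and -0.69). The lysosomal ribonucleases Rnaset2a and Rnaset2b, near-identical copies whose reads may be split, had -0.56 and -0.59 with Torin-2 against rapamycin, both passed.

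Xist, the RNA of the inactive X chromosome, ranged from 0 to 0.142 CPM over the 9 libraries, while the Y-linked Ddx3y ranged from 81.8 to 120.2 CPM. By these genes the macrophages of all 9 libraries read as male, whereas the labels give mice of both sexes for the marrow and for the pooled cords.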
